A study of Mus musculus with 6 samples.

Results

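The genes described here are 10 that make nicotinamide adenine dinucleotide (NAD) or encode the sirtuins that consume it: Nampt, Nmnat1, Nmnat3, Nmrk1, Naprt, Nadsyn1, Qprt, Sirt1, Sirt3 and Sirt6. They were chosen by name, and every transcript listed under these symbols was taken, 51 transcripts of 128603 and 10 symbols of 51803. RNA was sequenced from kidneys of male BALB/c mice, an inbred albino strain, at postnatal week 8, kept in a cycle of light and dark. Kidneys were taken at zeitgeber times 0, 4, 8, 12, 16 and 20 h (ZT0 to ZT20, counted from lights on), with 1 library at each time. No genotype or treatment other than time differed between the groups, and the question of the series is which kidney genes follow a daily rhythm. The labels do not say whether a library came from 1 animal or from several.

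NAD is made in mammals by several routes. The salvage route turns nicotinamide into NAD through NAMPT and an NMNAT enzyme, nicotinamide riboside enters through the NMRK kinases, nicotinic acid enters through NAPRT, and the de novo route starts from tryptophan and joins the nicotinic acid branch at QPRT. The last step of that branch is NADSYN1. Sirtuins are deacylases that split NAD, so NAD supply can limit them. In mouse liver and cultured cells Nampt is known as a target of the clock activators CLOCK and BMAL1, and SIRT1 as a deacetylase that acts back on the clock.

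FPKM is a count of fragments scaled by transcript length and by library size, and a gene is the sum of its transcripts unless a transcript is named. A cosine of 24 h was fitted to log2(FPKM + 1) of every gene whose mean reached 1 FPKM. Amplitude is the distance from mean to peak on that log2 scale. Its SE rests on how far the 6 libraries depart from a cosine, since no time has a replicate. The departure of each gene was moderated by limma, that is, drawn toward the one usual for genes of its level. Beside limma's p, an exact permutation p gives the share of the 60 distinct circular orders of the libraries in which the cosine takes at least as much of the variance, with 0.0167 as the smallest possible value. In whole tissue, fewer cells of a type and less RNA per cell cannot be told apart.

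Markers of the tissue and clock genes were read beside the labels. Proximal tubule markers (7 of 7 at or above 1 FPKM) summed to between 2333 and 2789 FPKM, and the adrenal markers Cyp11b1 and Cyp11b2 were listed at 0 in all 6 libraries. The clock genes had an unadjusted limma p under 0.05 in 14 of 14 cases (19.1% of all genes) and an adjusted one in 8 (0.283% of all genes). That p depends on the order of the libraries around the day. It stays the same if all times are shifted alike or reversed, so it cannot check the starting time or direction of the labels. Fitted peaks of the clock genes are given further on. Blood markers (5 of 5) had sums from 124 (ZT8) up to 314 FPKM (ZT16), and podocyte markers (3 of 3) from 6.83 (ZT12) up to 33.4 FPKM (ZT20). The fat markers Adipoq, Cfd and Plin1 were at 0.667, 1.32 and 0.548 FPKM at ZT8 and at or below 0.0553 FPKM elsewhere, while Fabp4, which endothelium also expresses, ranged from 41.9 to 57.1 FPKM. The number of reads per library is unknown.

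Some sequences help to read the results. The first pair shows where the coding sequences of the main Nmrk1 transcripts part, because these transcripts were highest at different times. Each line holds the last 30 shared coding bases of the spliced transcript in lower case and, in capitals, the coding bases that only this transcript has, stop codon included (GENCODE M21, GRCm38, forward strand of chromosome 19).
Nmrk1-201: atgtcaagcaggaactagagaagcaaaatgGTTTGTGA
Nmrk1-203: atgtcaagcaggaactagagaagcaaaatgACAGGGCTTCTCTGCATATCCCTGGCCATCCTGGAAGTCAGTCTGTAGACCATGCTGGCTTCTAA

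Nmrk1-203 (ENSMUST00000159572) reads on into an exon of 110 bases at chr19:18645912-18646021 and encodes 214 codons. Nmrk1-201 (ENSMUST00000042392) skips that exon, ends in the last exon at chr19:18651236-18651243 and encodes 195 codons, 580 coding bases being shared. The deposited table gives Nmrk1-203 a length of 1706 bases where GENCODE M21 gives 1768, so the version used for its FPKM differed somewhere from the one printed here. Nmrk1-201 has 1357 bases in both.

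The next pair shows the 250 bases before the RefSeq start site (GRCm38.p6) of Sirt1 and Nampt, written along the strand of the gene, with the canonical E-box CACGTG, a site that clock activators can bind, in capitals. The windows are chr10:63339036-63339285 on the reverse strand for Sirt1 and chr12:32820085-32820334 on the forward strand for Nampt.
Sirt1: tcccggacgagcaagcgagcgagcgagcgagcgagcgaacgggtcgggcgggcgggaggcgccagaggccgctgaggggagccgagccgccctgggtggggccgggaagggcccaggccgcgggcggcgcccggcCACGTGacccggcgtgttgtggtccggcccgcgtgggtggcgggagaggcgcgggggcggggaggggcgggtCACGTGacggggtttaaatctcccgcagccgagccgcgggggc
Nampt: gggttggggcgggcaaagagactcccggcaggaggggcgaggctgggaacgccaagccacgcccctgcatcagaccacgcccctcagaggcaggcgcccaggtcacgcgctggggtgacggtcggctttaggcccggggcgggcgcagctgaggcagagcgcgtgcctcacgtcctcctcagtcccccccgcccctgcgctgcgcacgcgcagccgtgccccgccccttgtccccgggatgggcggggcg

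RefSeq windows matched 9 of the 10 genes, 12 windows in all. They were searched on both strands for CACGTG, for CACGTT, for the D-box forms TTATGTAA and TTATGCAA, and for the A and G forms of the response element that ROR and REV-ERB receptors can bind. Sirt1 alone of these held a match, with CACGTG beginning 115 and 43 bases before the start site and no overlap with another motif. CACGTG is found in 6.02% of all 32851 windows of this length, CACGTT in 3.85%, TTATGTAA in 0.819%, TTATGCAA in 0.694%, the A form of the ROR element in 0.177% and its G form in 0.174%. For Nampt the lack of a match says only that these letters are not in this window.

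By mean level over the 6 libraries, Sirt3 (47.4 ± 3.80 FPKM, SD over times, n = 6) and Nampt (46.3 ± 9.37 FPKM) stood highest, and their ranges overlapped. Qprt (20.7 ± 2.57 FPKM) and Nmrk1 (19.3 ± 5.76 FPKM) followed with ranges that overlapped each other, that of Nmrk1 reaching down into that of Nadsyn1, and lay below every value of Nampt and Sirt3. Nadsyn1 (12.2 ± 2.28 FPKM), Naprt (11.3 ± 1.52 FPKM), Nmnat1 (9.19 ± 0.685 FPKM), Sirt1 (8.28 ± 0.777 FPKM) and Nmnat3 (7.92 ± 1.54 FPKM) formed a run in which each overlapped the next. Sirt6 was lowest at 2.97 ± 0.401 FPKM, and its highest value, 3.43 FPKM, lay below the lowest of Nmnat3, 5.43 FPKM.

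**Figure D1:**
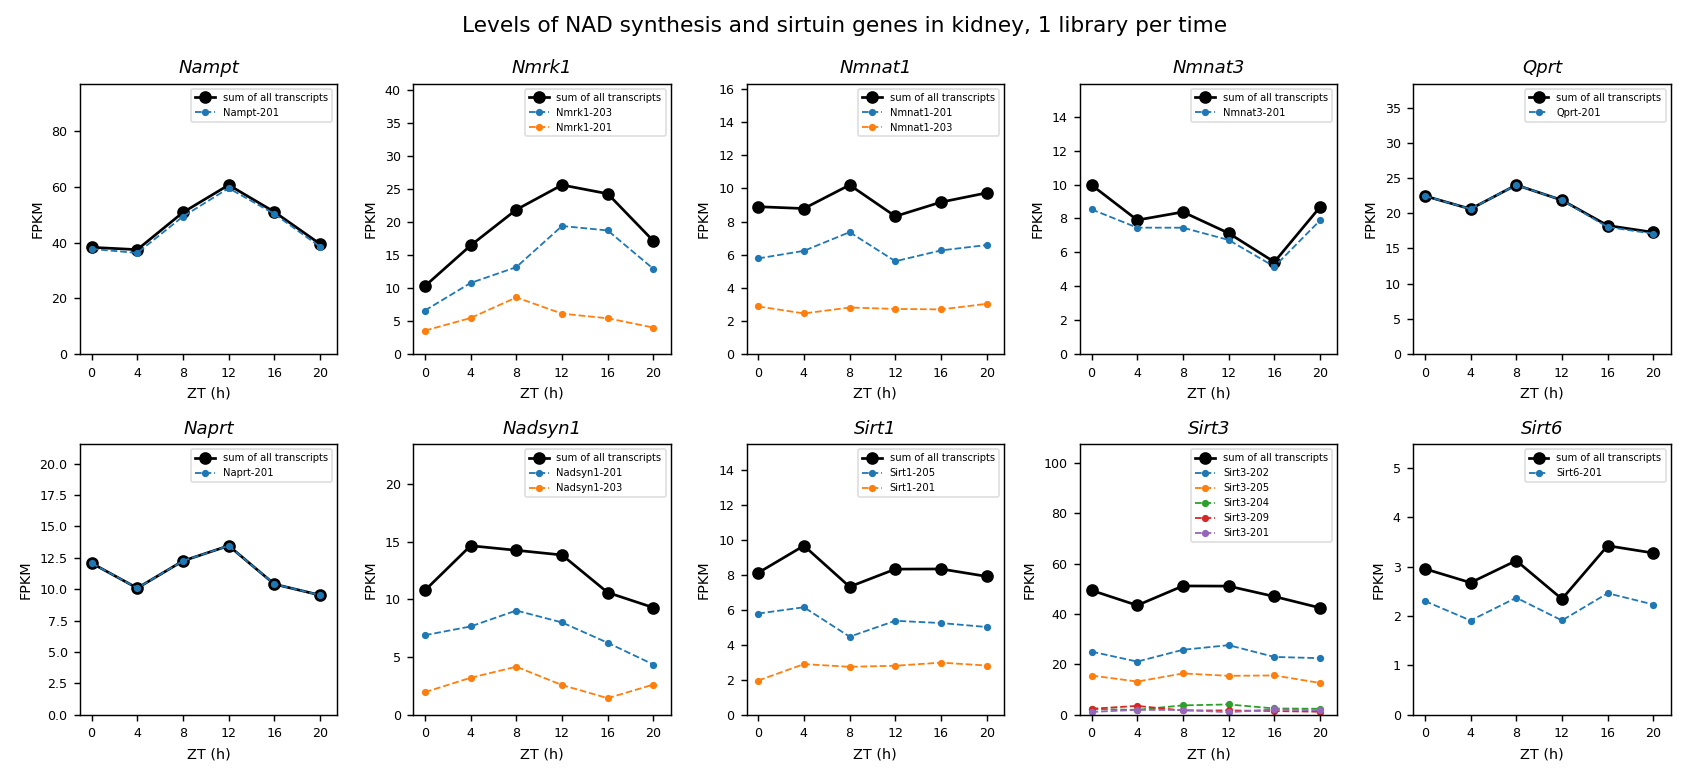
FPKM (y axis, from 0) against zeitgeber time (x axis, h) for the 10 genes, 1 library per point; black is the sum of all transcripts and dashed lines are transcripts whose mean reached 1 FPKM. Nampt and Nmrk1 stand highest at ZT12, at 60.7 and 25.6 FPKM, while the summed Sirt1 stays between 7.32 and 9.67 FPKM.

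Of the 10 genes, all passed the filter on low values, and 0 had an adjusted limma p under 0.05, against 0.283% of the 12709 genes tested. At an unadjusted p under 0.05 there were 3, Nampt, Nmrk1 and Nadsyn1, against 19.1% of all genes, so a count of 3 of 10 is little above the background. By ordinary least squares without moderation the same 3 genes were under 0.05 unadjusted and 0 adjusted. Of all 12709 genes, 1661 were under 0.05 unadjusted in that fit and 2 adjusted. The median amplitude of the 10 genes was 0.16, beside 0.13 for all genes tested. Among transcripts, 18 of the 51 reached a mean of 1 FPKM. Of these, 4 had an unadjusted limma p under 0.05, beside 15.2% of the 21596 transcripts tested, and 0 passed after adjustment, as was the case for 0 (0%) of all transcripts. Their median amplitude of 0.17 equalled the 0.17 of all transcripts tested. The other 33 transcripts stayed below a mean of 1 FPKM, and 6 of them were listed at 0 in every library.

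**Figure D2:**
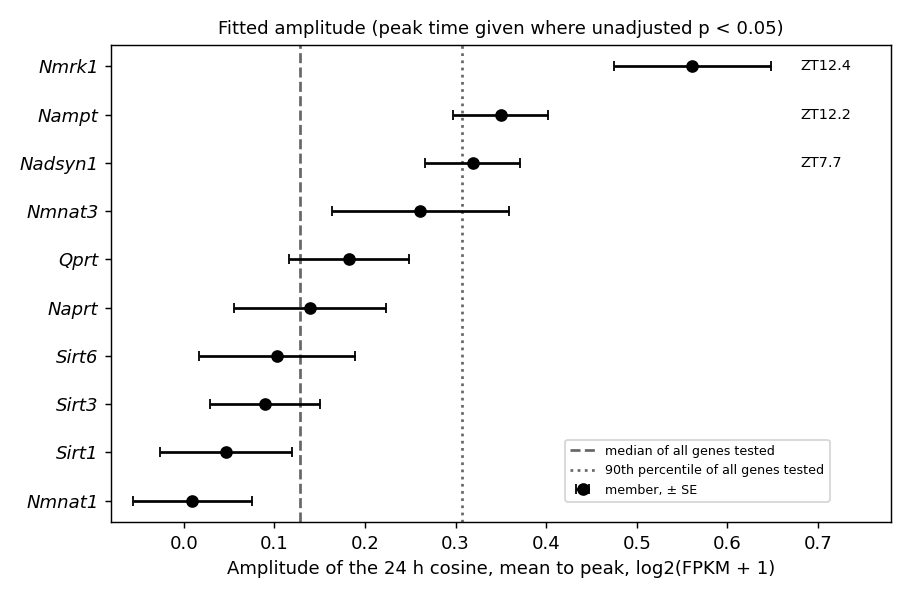
Fitted amplitude of the 24 h cosine (x axis, log2 scale, mean to peak) for each gene, with bars for the SE; dashed and dotted lines mark the median (0.13) and the 90th percentile (0.31) of all genes tested. Nmrk1 (0.56), Nampt (0.35) and Nadsyn1 (0.32) lie beyond the dotted line, with their peak times at the right.

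Nampt (ENSMUSG00000020572, chr12:32819545-32853349, forward strand, GRCm38), the rate-limiting enzyme of nicotinamide salvage, was at 38.3 FPKM at ZT0, 37.5 at ZT4, 50.9 at ZT8, 60.7 at ZT12, 51.0 at ZT16 and 39.5 at ZT20. The values stood highest at ZT12 with ZT8 and ZT16 at nearly the same level on either side, and the other times lay within a narrow band below. The cosine over the 6 libraries had an amplitude of 0.35 ± 0.05 (SE) and peaked at ZT12.2 ± 0.572 h, and the highest value was 1.62 times the lowest. The gene did not pass the adjusted threshold (limma adjusted p = 0.104, unadjusted p = 0.00131, exact permutation p = 0.05). The full-length coding transcript Nampt-201 held 97.8% of the FPKM and had the same amplitude, 0.35 ± 0.06. The short transcripts Nampt-202 and Nampt-203, annotated as noncoding and as a target of nonsense-mediated decay, had means of 0.967 and 0.0509 FPKM.

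Thick ascending limb markers were also highest at ZT12, where Umod and Slc12a1 summed to 1347 FPKM, and lowest at ZT4 with 898 FPKM. The summed markers of collecting duct principal cells (Aqp2 and Aqp3) had the same lowest and highest times, at 157 and 267 FPKM. So had the summed intercalated cell markers, at 48.6 and 60.6 FPKM. Single markers of these lists departed from their sums. Aqp2 was highest at ZT16 and Aqp3 lowest at ZT20. Atp6v1g3 had the times of its sum, Slc4a1 was highest at ZT8, and Slc26a4 was highest at ZT4 and lowest at ZT20. An unadjusted limma p under 0.05 was found for neither thick ascending limb marker, 1 of 2 principal cell markers and 1 of 3 intercalated cell markers (19.1% of all genes). The former was Aqp2, the vasopressin-regulated water channel (limma adjusted p = 0.0647). Podocyte markers were lowest at ZT12. In sum, proximal tubule markers went the other way from Nampt, highest at ZT4 (2789 FPKM) and lowest at ZT12 (2333 FPKM). The summed distal convoluted tubule markers were highest at ZT0 (205 FPKM) and lowest at ZT8 (146 FPKM). The part of all these markers in the Nampt result was not tested. Fitted peaks of the 14 clock genes were spread over the day. Those of Per1 (ZT12.0), Cry2 (ZT13.5), Per2 (ZT14.1) and Per3 (ZT10.3) lay nearest to that of Nampt. Nr1d1 peaked at ZT5.53, Nr1d2 at ZT8.59, Dbp at ZT8.80, Tef at ZT8.86, Ciart at ZT9.68 and Cry1 at ZT16.7. Nfil3 peaked at ZT19.7, Arntl, which encodes BMAL1, at ZT21.5, and Clock and Npas2 at ZT22.5. Any relation of these genes to Nampt was not tested. Over the 14 clock genes the amplitude ran from 0.32 for Clock and 0.37 for Cry2, close to that of Nampt, through 0.68 for Per1 and 0.88 for Per3 to 2.30 for Dbp.

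The genes whose daily profile lay closest to that of Nampt were sought among 8479 others whose mean reached 5 FPKM, by the root mean square difference between the centred log2 values over the 6 libraries. The closest 5 were Bnip3, a mitophagy receptor, at 0.07, the kinase gene Stk35 at 0.07, the mitochondrial carrier gene Slc25a35 at 0.07, Aqp6, an aquaporin of intercalated cells, at 0.07, and the acetyltransferase gene Nat8 at 0.08. Bnip3 went from 73.7 FPKM at ZT4 to 111 FPKM at ZT12, and Aqp6 from 12.1 FPKM at ZT4 to 22.5 FPKM at ZT12. The median difference over all genes compared was 0.28, and a flat profile would lie at 0.26. Nmrk1, with nearly the same fitted peak time as Nampt, lay at 0.25, and its range was wider.

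Nmrk1 (ENSMUSG00000037847, chr19:18631950-18652428, forward strand), the nicotinamide riboside kinase, had the widest daily range of the 10 genes. It was at 10.3 FPKM at ZT0, 16.5 at ZT4, 21.9 at ZT8, 25.6 at ZT12, 24.3 at ZT16 and 17.1 at ZT20, so that ZT0 stood apart below all other times and ZT12 and ZT16 were close together at the top. The highest value was 2.49 times the lowest. Its cosine, fitted on 6 libraries, had an amplitude of 0.56 ± 0.09 (SE), larger than in 98.0% of all genes tested, and peaked at ZT12.4 ± 0.588 h. Its exact permutation p was 0.0167, the smallest that the orders allow, and the share of all genes that reach this value was not counted. Slc25a51 and Pnp, described further on, had the same exact p at amplitudes of 0.17 and 0.15. For Nmrk1 the limma adjusted p was 0.107 (unadjusted 0.00154), so the adjusted threshold was not passed. Without the ZT0 library the amplitude was 0.41.

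The main Nmrk1 transcripts were highest in different libraries. Nmrk1-203, the longer coding form, was at 6.58 FPKM at ZT0, 10.8 at ZT4, 13.2 at ZT8, 19.4 at ZT12, 18.7 at ZT16 and 12.9 at ZT20. Nmrk1-201, the shorter coding form, was at 3.53 FPKM at ZT0, 5.45 at ZT4, 8.57 at ZT8, 6.11 at ZT12, 5.40 at ZT16 and 3.99 at ZT20. The shorter form was thus highest at ZT8 and the longer one at ZT12 and ZT16. Their fitted peaks were ZT9.57 ± 0.775 h for Nmrk1-201 (amplitude 0.46 ± 0.09, limma adjusted p = 0.24, unadjusted 0.00928) and ZT13.3 ± 0.641 h for Nmrk1-203 (amplitude 0.64 ± 0.11, adjusted p = 0.197, unadjusted 0.00382).

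As a share of all Nmrk1 FPKM, Nmrk1-201 took 34.3% at ZT0, 33.1% at ZT4, 39.2% at ZT8, 23.8% at ZT12, 22.2% at ZT16 and 23.3% at ZT20. The share stood higher at the first 3 times than at the last 3, each time being 1 library. How often transcripts of other genes separate in this way was not counted. The ratio of Nmrk1-203 to Nmrk1-201 was between 1.54 and 1.98 from ZT0 to ZT8 and between 3.18 and 3.47 from ZT12 to ZT20. A cosine on the log2 ratio had an exact permutation p of 0.183, so the difference in timing was not shown by that test. It was 1 of 5 such pairs of leading transcripts examined, chosen after the values were seen, and the exact p of the other 4 lay between 0.383 and 0.983. How reads were divided between transcripts is not given in the sources used here, and the forms share most of their bases. The remaining 3 Nmrk1 transcripts had a mean of 0.106 FPKM or less.

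**Figure D3:**
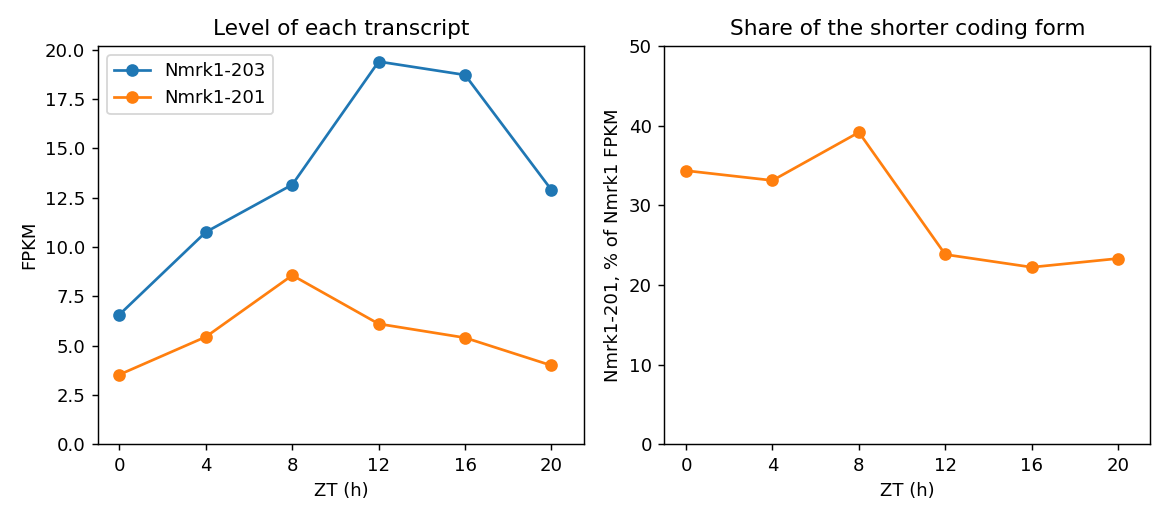
Left, FPKM of the main Nmrk1 transcripts against zeitgeber time (h); right, the share of Nmrk1-201 in all Nmrk1 FPKM (%), 1 library per point. The share lies between 33.1% and 39.2% at ZT0 to ZT8 and between 22.2% and 23.8% at ZT12 to ZT20.

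The NMNAT enzymes join the mononucleotide to ATP's adenylate, NMNAT1 in the nucleus and NMNAT3 in mitochondria and cytosol. Nmnat1 (ENSMUSG00000028992, chr4:149467572-149485202, reverse strand) was at 8.90 FPKM at ZT0, 8.79 at ZT4, 10.2 at ZT8, 8.32 at ZT12, 9.17 at ZT16 and 9.73 at ZT20. Its amplitude of 0.01 ± 0.07 was smaller than in all but 0.496% of the genes tested (limma adjusted p = 0.994, exact permutation p = 0.983), and it was at most 0.10 with any 1 library left out. Nmnat1-201, which encodes 285 codons, held 68.6% of the FPKM and Nmnat1-203, annotated with 149 codons, 30.02%. Neither went through more than a small range, 5.60 to 7.36 FPKM for Nmnat1-201 and 2.44 to 3.03 FPKM for Nmnat1-203.

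Nmnat3 (ENSMUSG00000032456, chr9:98287435-98420438, forward strand) was at 9.98 FPKM at ZT0, 7.91 at ZT4, 8.38 at ZT8, 7.13 at ZT12, 5.43 at ZT16 and 8.67 at ZT20. The ZT16 library stood lowest and ZT0 highest, a ratio of 1.84. The amplitude was 0.26 ± 0.10 with a fitted peak at ZT1.88 ± 1.43 h, and neither test was passed (limma adjusted p = 0.321, unadjusted 0.0909, exact permutation p = 0.233). Without the ZT16 library the amplitude was 0.15, with a peak at ZT23.7. Nmnat3-201, of 245 codons, held 90.99% of the FPKM. The short form Nmnat3-203, of 126 codons, was at 1.37 FPKM at ZT0 and 0.227 at ZT16, so that both coding forms were highest and lowest in the same libraries.

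Qprt (ENSMUSG00000030674, chr7:127107114-127122226, reverse strand), which turns quinolinic acid from the de novo route into nicotinic acid mononucleotide, was at 22.5 FPKM at ZT0, 20.6 at ZT4, 24.02 at ZT8, 21.9 at ZT12, 18.3 at ZT16 and 17.3 at ZT20. The last 2 times were lowest and ZT8 was highest. Its amplitude was 0.18 ± 0.07 with a fitted peak at ZT6.74 ± 1.38 h (limma adjusted p = 0.306, unadjusted 0.0809, exact permutation p = 0.25). Qprt-201 held 99.7% of the FPKM.

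Naprt (ENSMUSG00000022574, chr15:75890956-75894481, reverse strand), which takes nicotinic acid into the same branch, is listed with 1 transcript. It was at 12.1 FPKM at ZT0, 10.1 at ZT4, 12.2 at ZT8, 13.5 at ZT12, 10.4 at ZT16 and 9.52 at ZT20. ZT12 was highest and ZT20 lowest, with ZT4 close to the low end, and the cosine took 0.366 of the variance (amplitude 0.14 ± 0.08, limma adjusted p = 0.55, exact permutation p = 0.433). The amplitude was 0.26 without ZT0 and 0.09 without either ZT12 or ZT20.

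Nadsyn1 (ENSMUSG00000031090, chr7:143795584-143822849, reverse strand), the amidating synthetase at the end of that branch, was at 10.8 FPKM at ZT0, 14.7 at ZT4, 14.3 at ZT8, 13.9 at ZT12, 10.6 at ZT16 and 9.29 at ZT20. The 3 times from ZT4 to ZT12 lay close together and above all others. The cosine over the 6 libraries had an amplitude of 0.32 ± 0.05 (SE) and peaked at ZT7.66 ± 0.631 h, earlier than the ZT12.2 of Nampt, a difference that was not tested. It missed the adjusted threshold (limma adjusted p = 0.112, unadjusted 0.00227, exact permutation p = 0.05). Proximal tubule markers had 3 of 7 members with an unadjusted limma p under 0.05 (19.1% of all genes). Their fitted peaks were at ZT5.25 (Slc5a12), ZT5.67 (Slc22a6) and ZT7.97 (Cubn). The other 4 peaked between ZT0.0299 and ZT4.68 or, for Slc5a2, at ZT23.5, and the sum of the list was lowest at ZT12, where Nadsyn1 was among its 3 highest values. The part of these markers in the Nadsyn1 result was not tested.

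Nadsyn1-201, the full coding transcript, held 57.4% of the FPKM. It was at 6.89 FPKM at ZT0, 7.65 at ZT4, 9.04 at ZT8, 8.00 at ZT12, 6.23 at ZT16 and 4.35 at ZT20, with ZT8 highest and ZT20 lowest (amplitude 0.38 ± 0.08, limma adjusted p = 0.263, unadjusted 0.0147, exact permutation p = 0.0333). Nadsyn1-203, a transcript annotated as keeping an intron, held 21.7% and ranged from 1.43 FPKM at ZT16 to 4.16 FPKM at ZT8. Its amplitude was 0.38 ± 0.15 (adjusted p = 0.416, unadjusted 0.115). Without the ZT20 library it was 0.62 (unadjusted p = 0.00759, adjusted 0.545), while that of Nadsyn1-201 was 0.26 (unadjusted p = 0.0813).

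Of the 3 sirtuins among the 10 genes, 0 had an unadjusted limma p under 0.05, beside 19.1% of all genes; their difference in amplitude from Nampt was not tested. Sirt1 (ENSMUSG00000020063, chr10:63319005-63381704, reverse strand), the nuclear deacetylase, was at 8.12 FPKM at ZT0, 9.67 at ZT4, 7.32 at ZT8, 8.33 at ZT12, 8.34 at ZT16 and 7.91 at ZT20. ZT4 was highest and ZT8, the next time, lowest, and the amplitude was 0.05 ± 0.07 (limma adjusted p = 0.9, exact permutation p = 0.967), and at most 0.12 with any 1 library left out. This is the gene with both E-boxes in the window printed above.

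Most Sirt1 FPKM were not on the full coding transcript. Sirt1-205, annotated as a target of nonsense-mediated decay, the pathway that degrades RNA with an early stop codon, held 64.5%, and Sirt1-201, which encodes 737 codons, held 32.5%. Sirt1-205 was at 5.79 FPKM at ZT0, 6.15 at ZT4, 4.46 at ZT8, 5.37 at ZT12, 5.24 at ZT16 and 5.02 at ZT20. Sirt1-201 was at 1.95 FPKM at ZT0, 2.89 at ZT4, 2.74 at ZT8, 2.80 at ZT12, 2.98 at ZT16 and 2.81 at ZT20, lower at ZT0 than at the other times, which lay between 2.74 and 2.98 FPKM. The transcripts have 7 of their 9 exons in common, so this split rests on how reads from shared exons were assigned. The profile of summed Sirt1 is therefore mainly that of Sirt1-205, and coding transcripts summed on their own gave an amplitude of 0.09 where all gave 0.05 (adjusted p = 0.651, limma).

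Sirt3 (ENSMUSG00000025486, chr7:140863666-140882309, reverse strand), the main mitochondrial deacetylase, was at 49.4 FPKM at ZT0, 43.4 at ZT4, 51.2 at ZT8, 51.1 at ZT12, 47.0 at ZT16 and 42.5 at ZT20. Its highest value was 1.21 times the lowest, the narrowest ratio of the 10 genes, and the amplitude was 0.09 ± 0.06 (limma adjusted p = 0.605, exact permutation p = 0.533), with 0.18 without ZT0 and 0.05 without ZT20. Of 10 transcripts, 5 reached a mean of 1 FPKM. Sirt3-202 held 50.9% and Sirt3-205, which is annotated without a complete end, 31.2%. Sirt3-201 has the same coding sequence of 257 codons as Sirt3-202 and shares 6 of 7 exons with it, the first, noncoding exon being the one that differs. It held 3.38%, between 0.949 and 2.13 FPKM, beside 21.1 to 27.6 FPKM for Sirt3-202, so the form with the other first exon was far lower at every time. Sirt3-204, a partial coding form, ranged from 1.92 FPKM at ZT4 to 4.05 FPKM at ZT12, and Sirt3-209, annotated as keeping an intron, from 1.15 FPKM at ZT20 to 3.48 FPKM at ZT4 (limma adjusted p = 0.352 and 0.379).

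Sirt6 (ENSMUSG00000034748, chr10:81621785-81627797, reverse strand), a chromatin deacylase, was at 2.96 FPKM at ZT0, 2.68 at ZT4, 3.12 at ZT8, 2.35 at ZT12, 3.43 at ZT16 and 3.28 at ZT20. The values went up and down between neighbouring times, and the amplitude was 0.10 ± 0.09 (limma adjusted p = 0.701, exact permutation p = 0.583), with 0.21 without ZT8. Sirt6-201 held 74.1% of the FPKM. The shorter coding form Sirt6-202, below the filter, was at 0.9301 FPKM at ZT16 and 0.810 at ZT20 and between 0.383 and 0.480 FPKM at the other times.

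The other sirtuin genes were measured beside these. Of Sirt2, Sirt4, Sirt5 and Sirt7, 1 of 4 had an unadjusted p under 0.05 (19.1% of all genes) and 0 an adjusted one (0.283% of all genes, limma). Sirt7, a nucleolar deacylase, ranged from 25.8 (ZT16) to 32.8 FPKM (ZT8) (amplitude 0.19 ± 0.04, peak ZT5.89, adjusted p = 0.161, unadjusted 0.00768). Sirt2, the cytosolic one, stayed between 26.7 and 28.7 FPKM.

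Among 8 genes of the de novo route, 6 reached a mean of 1 FPKM, 3 had an unadjusted limma p under 0.05 (19.1% of all genes) and 0 an adjusted one (0.283%), with a median amplitude of 0.12 beside 0.13 for all genes. Of the route's first enzymes, Tdo2 and Ido1 were at or below 0.259 FPKM and Ido2 was at 2.93 to 4.03 FPKM. Haao, which makes the precursor of quinolinic acid, was at 100 to 112 FPKM. Acmsd, which diverts that precursor away from QPRT, was at 120 FPKM at ZT0, 130 at ZT4, 86.5 at ZT8, 52.7 at ZT12, 94.8 at ZT16 and 146 at ZT20. It was thus lowest in the library in which Nampt was highest (amplitude 0.60 ± 0.13, peak ZT23.4, adjusted p = 0.172, unadjusted 0.0111). Kynu, the kynureninase gene, was between 1.96 and 2.07 FPKM from ZT0 to ZT8 and between 3.96 and 4.41 FPKM from ZT12 to ZT20 (amplitude 0.54 ± 0.08, peak ZT16.2, adjusted p = 0.107, unadjusted 0.00147). Aqp2 also stood higher at the last 3 times, at 172, 181 and 178 FPKM against 82.3 to 117 FPKM before, and blood markers were highest at ZT16 and ZT20; their part in the Kynu values was not tested. Kmo, which makes 3-hydroxykynurenine, ranged from 33.2 (ZT16) to 42.2 FPKM (ZT4) (amplitude 0.15 ± 0.04, adjusted p = 0.238).

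**Figure D4:**
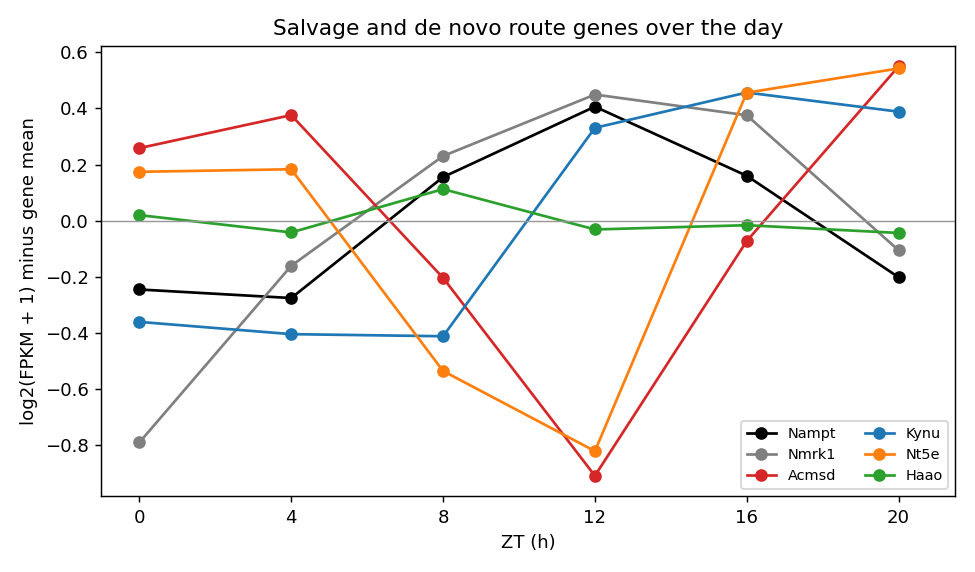
log2(FPKM + 1) minus the mean of each gene (y axis) against zeitgeber time (x axis, h) for Nampt, Nmrk1, the de novo route genes Acmsd, Kynu and Haao, and Nt5e, 1 library per point. At ZT12 Nampt and Nmrk1 stand at their highest, 60.7 and 25.6 FPKM, and Acmsd and Nt5e at their lowest, 52.7 and 28.8 FPKM, while Haao stays near 0.

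Of 10 further genes of NAD and NADP supply, 7 were tested, 3 had an unadjusted limma p under 0.05 (19.1% of all genes) and 0 an adjusted one (0.283%), and their median amplitude was 0.15 beside 0.13 for all genes. Nt5e, the ectonucleotidase CD73, ranged from 28.8 (ZT12) to 75.7 FPKM (ZT20) (amplitude 0.61 ± 0.15, peak ZT21.3, adjusted p = 0.196). Podocyte markers had the same lowest and highest times, and their part in the Nt5e and Acmsd values was not tested. Slc25a51, the mitochondrial NAD carrier, ranged from 36.1 (ZT8) to 46.6 FPKM (ZT20) (adjusted p = 0.176), and Pnp, a purine nucleoside phosphorylase that also cleaves nicotinamide riboside, from 32.4 (ZT12) to 39.5 FPKM (ZT0) (adjusted p = 0.212). Nadk, the cytosolic NAD kinase, and Naxe, an epimerase that repairs damaged NADH and NADPH, were highest in this list with nearly equal means, 59.6 and 59.5 FPKM, and overlapping ranges, 55.8 to 64.9 and 51.6 to 62.4 FPKM. Nmrk2, the paralog of Nmrk1, and Nmnat2 were listed at or near 0, at most 0.0505 FPKM.

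Of 12 genes that use NAD or clear nicotinamide, 9 were tested, 3 had an unadjusted limma p under 0.05 (19.1% of all genes) and 0 an adjusted one (0.283%), with a median amplitude of 0.16 beside 0.13 for all genes. Cd38, an NAD glycohydrolase found on immune and endothelial cells, ranged from 0.967 (ZT4) to 2.32 FPKM (ZT20) (adjusted p = 0.226). The endothelial markers Pecam1, Kdr and Emcn had sums from 27.3 (ZT8) to 49.9 FPKM (ZT20). Macrophage and lymphocyte markers, 2 of 5 at or above 1 FPKM, had sums from 3.46 (ZT8) to 5.06 FPKM (ZT20). The part of either list in the Cd38 values was not tested. Parp10, a mono-ADP-ribosyltransferase, ranged from 7.01 (ZT16) to 11.2 FPKM (ZT8) (adjusted p = 0.176), and Parp9 from 4.69 (ZT16) to 6.42 FPKM (ZT0) (adjusted p = 0.216). The highest of the list was Parp3, between 14.7 and 17.9 FPKM. Nnmt and Aox1, which clear nicotinamide in mouse liver, were at or below 0.281 and 0.142 FPKM in every library.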

How the data were processed

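RNA of 6 kidney libraries, 1 per time, was analysed. The authors deposited FPKM values with 1 line per Ensembl transcript, per the file headers. The submitters' processing notes name bcl2fastq 2.20 and build mm9; aligner and estimator: not given in the sources used here. Of 127971 transcripts matched by identifier to GENCODE M21, 98.59% lie inside the deposited locus, so positions are given on GRCm38. FPKM summed to 534448 to 577493 per library, and the depth is unknown. FPKM hold no counts, so no count test was run. The labels describe the library kit as strand-specific.

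Transcripts were summed per symbol, and log2(FPKM + 1) was fitted with a 24 h cosine and sine in limma 3.58.1 (R 4.3.3, eBayes with trend, 3 residual degrees of freedom), with the moderated F test adjusted by Benjamini-Hochberg over all features with a mean of at least 1 FPKM (threshold 0.05). Transcripts were fitted in the same way. Each p-value rests on single libraries, so animal-to-animal spread is not measured. The fit was tested on simulated data. The simulated waves were larger than the fitted amplitude of every member except Nmrk1, so smaller waves were not tried. Alternatives were a pseudocount of 0.1, no filter, a filter at 5 FPKM, quantile and median-of-ratios scaling, no trend, robust moderation, ordinary least squares, the most abundant transcript alone, coding transcripts alone, and the omission of each library. All members were named, the genes of each other list at unadjusted p under 0.05 or of highest mean, and the 5 genes nearest to Nampt. Naxe was matched by Ensembl identifier under its older symbol. Tdo2, Ido1, Ido2, Haao, Nmrk2, Nmnat2, Nnmt, Aox1 and Sirt2 fall outside this rule and were named after their values were seen. Members, gene lists and motifs were chosen with earlier results of these data known. Python 3.11.15 with numpy 2.4.6, pandas 2.3.3 and matplotlib 3.10.9 did the rest.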

Additional observations from a re-analysis of the deposited data

How the results depend on the processing

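Nampt, Nmrk1 and Nadsyn1 had an unadjusted limma or least squares p under 0.05 in all 16 alternatives, with amplitudes of 0.31 to 0.42, 0.41 to 0.64 and 0.29 to 0.39, and peak times within 0.866 h. None passed the adjusted threshold in any, the lowest adjusted p being 0.0504 (Nmrk1, coding transcripts summed). The count of members at unadjusted p under 0.05 ranged from 3 to 5 when each library was left out. Qprt and Naprt were added without ZT0, and Qprt and Nmnat3 without ZT4. Of the 12709 genes tested, 2277 were under 0.05 unadjusted without ZT0 and 2432 without ZT4, beside 2428 with all libraries. With median-of-ratios scaling Qprt was added, so that 4 members were under 0.05 unadjusted, beside 2421 of all genes. Over all genes, 36 passed the adjusted threshold; the count was 0 with no filter, 7 with no trend, 66 with robust moderation, 2 by ordinary least squares, 2 with the most abundant transcript alone, 129 with coding transcripts summed and 0 to 3 when 1 library was left out. At unadjusted p the 2428 genes became 1157 to 2432 when 1 library was left out (1157 without ZT20, 1618 without ZT16). Among transcripts, 2 passed by ordinary least squares, and the 3277 at unadjusted p became 6004 with no filter, 1829 with a minimum mean of 5 FPKM and 1789 to 3306 when 1 library was left out. The causes were not tested. No paired analysis was possible because each time has 1 library. The unknown depth leaves the counting error of the low transcripts unknown.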
